A study of Mus musculus with 10 samples.

Results

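Prg4 encodes lubricin, also called proteoglycan 4, and is 1 of the 24421 gene symbols counted in this study of irradiated mouse fat. Prg4 was chosen by its measured counts, because its level in these libraries differed between the irradiation groups, so its levels and fold changes are given here as a description with no test. The study sequenced total RNA of inguinal subcutaneous white adipose tissue from wild-type C57BL/6J mice, collected on the left hindlimb at day 70. The irradiated mice had received 33.3 Gy of electrons from an ElectronFlash linear accelerator, and the libraries carry a single batch label. FLASH is irradiation at ultra-high dose rate (n = 4 libraries), CONV is irradiation at conventional dose rate (n = 3 libraries), and sham mice were controls that were not irradiated (n = 3 libraries). Nothing in the labels ties a library to a mouse of its own, and the p-values below therefore measure only the spread between samples, which may be technical.

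Lubricin is a large secreted glycoprotein with somatomedin B domains at its start, a long mucin-like stretch coated with O-linked sugars, and a hemopexin-like domain at its end. It is best known as the boundary lubricant of joints, where the synovial lining fibroblasts and the superficial cells of articular cartilage make it, and it binds hyaluronan, CD44 and Toll-like receptors. Its transcription is known to rise with TGF-beta and to fall with inflammatory cytokines in joint cells, and fibroblasts of other soft tissues transcribe it as well.

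The libraries held 22.4 M to 36.0 M counts on genes (M, 1e+06), so that 3 counts, taken as the detection floor, stood for 0.0833 to 0.134 CPM (counts scaled to 1 M per library). A pair of libraries stood apart: the follicular dendritic and B cell receptor gene Cr2 was at 416 CPM in FLASH replicate 3 and at 381 CPM in CONV replicate 2, against 0.0976 to 0.544 CPM in the other 8 libraries. The same pair had the lowest summed adipocyte markers, 6810 and 5100 CPM against 29400 to 44600 CPM elsewhere. Likeness to Prg4 was therefore measured in the 8 libraries with Cr2 below 1 CPM, and each comparison is given with all 10 libraries and with these 8. In bulk tissue, fewer cells of a type and less RNA per cell cannot be told apart.

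Prg4 was a weakly expressed gene in unirradiated fat, lower after FLASH, and many times higher in 2 of the 3 CONV libraries. In sham replicates 1, 2 and 3 it had 69, 81 and 64 counts, which equal 2.10, 2.64 and 2.15 CPM after TMM scaling of the library sizes. In FLASH replicates 1, 2, 3 and 4 it had 38, 32, 23 and 51 counts, or 1.15, 1.17, 0.886 and 1.57 CPM. In CONV replicates 1, 2 and 3 it had 622, 42 and 352 counts, or 19.9, 1.40 and 12.9 CPM. All 4 FLASH libraries lay below all 3 sham libraries, with no overlap, and CONV replicate 2, one of the pair rich in Cr2, lay among the FLASH libraries and below the lowest sham library. CONV replicates 1 and 3 lay above every other library.

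**Figure D1:**
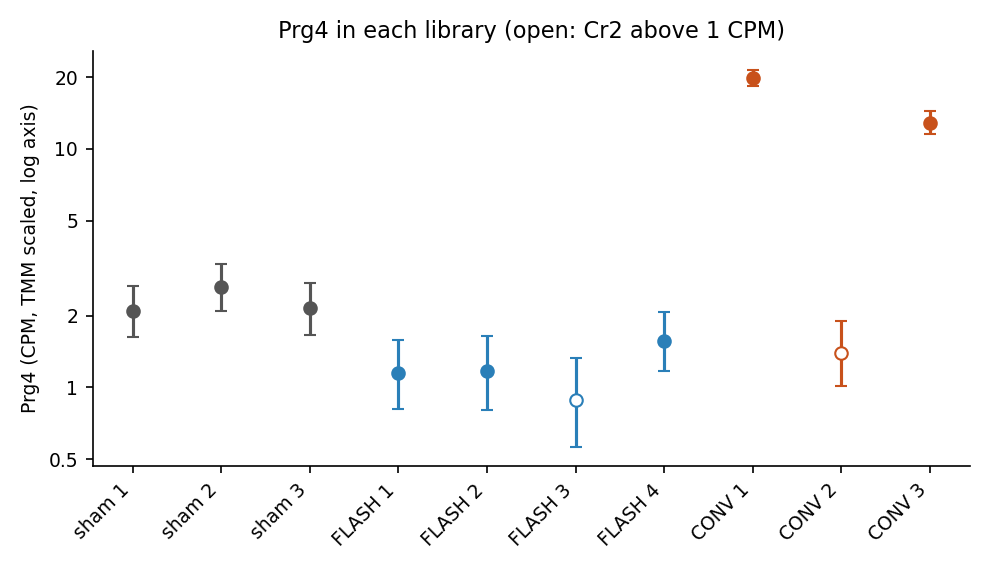
Prg4 level in each library (vertical log axis, CPM after TMM scaling, bars are 95% Clopper-Pearson intervals of the count), with libraries along the horizontal axis and open symbols for the 2 libraries with Cr2 above 1 CPM. The FLASH libraries sit between 0.886 and 1.57, the sham libraries between 2.10 and 2.64, and the CONV libraries at 19.9, 1.40 and 12.9.

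The counts set how sharply these levels are known. The 95% Clopper-Pearson intervals, which cover counting error only, ran from 1.63 to 2.65 CPM for sham replicate 1 and from 1.17 to 2.07 CPM for FLASH replicate 4, so these neighbouring libraries were not separable by counting alone. The interval of CONV replicate 1 ran from 18.4 to 21.5 CPM and that of CONV replicate 3 from 11.6 to 14.4 CPM, far from the sham intervals. The interval of CONV replicate 2, 1.01 to 1.90 CPM, overlapped those of sham replicates 1 and 3 and of all 4 FLASH libraries. No library had Prg4 near the floor of 3 counts.

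In order of group means, FLASH was at 1.20 ± 0.284 CPM (SD, n = 4), sham at 2.29 ± 0.297 CPM (SD, n = 3) and CONV at 11.4 ± 9.35 CPM (SD, n = 3). The gap between FLASH and sham exceeded the SD of either group, whereas the SD of CONV, with replicate 2 at 1.40 CPM, was larger than its distance from sham. In the 8 libraries with Cr2 below 1 CPM, FLASH was at 1.30 ± 0.239 CPM (SD, n = 3) and CONV at 16.4 ± 4.93 CPM (SD, n = 2), and neither group overlapped sham. FLASH lay below sham under each of the 3 scalings tried. With DESeq2 size factors the highest FLASH library was at 1.58 and the lowest sham library at 2.08 CPM, and with total gene counts they were at 1.59 and 1.98 CPM.

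With all 10 libraries, the fitted Prg4 log2 fold change was 2.31 ± 0.75 (SE) for CONV against sham, or 4.97-fold higher. It was -0.94 ± 0.67 (SE) for FLASH against sham, or 1.91-fold lower, and 3.25 ± 0.70 (SE) for CONV against FLASH, or 9.51-fold higher. With the 8 libraries it was 2.82 ± 0.26 (SE) for CONV against sham, or 7.07-fold higher, -0.82 ± 0.25 (SE) for FLASH against sham, or 1.77-fold lower, and 3.65 ± 0.27 (SE) for CONV against FLASH, or 12.5-fold higher. Leaving out the pair rich in Cr2 changed the size of each difference by less than its SE with all libraries, and the SEs became smaller. These contrasts share libraries and are not independent of each other.

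**Figure D2:**
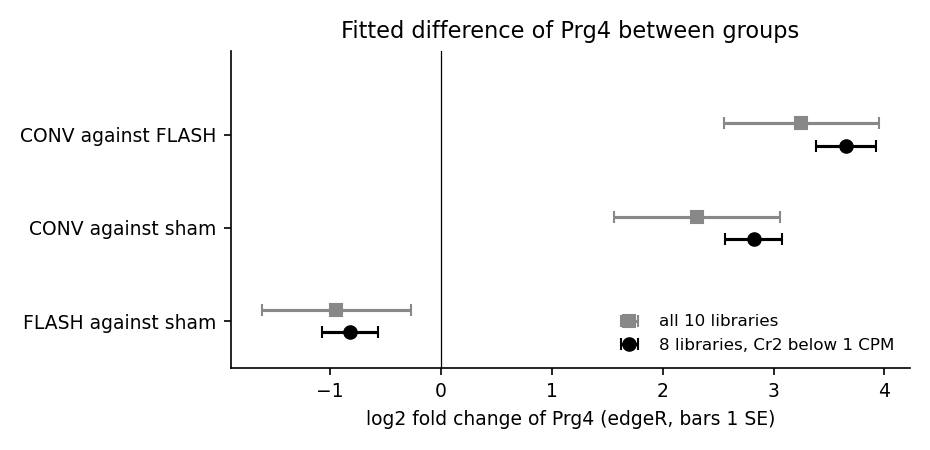
Fitted log2 fold change of Prg4 in the 3 contrasts (horizontal axis, bars are 1 SE), with grey squares for all 10 libraries and black circles for the 8 libraries with Cr2 below 1 CPM. CONV lay above sham by 2.31 and 2.82 and above FLASH by 3.25 and 3.65, and FLASH lay below sham by 0.94 and 0.82.

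These sizes can be set beside those of the other genes. In the 8 libraries, 97 of 15252 genes, Prg4 included, had a log2 fold change at least as high as that of Prg4 in CONV against sham, and 45 had one at least as high in CONV against FLASH. In FLASH against sham, 299 genes, Prg4 included, were at least as low. Every CONV library of the 8 exceeded every sham library for 12.9% of the genes tested and every FLASH library for 13.3%, and Prg4 was among both sets. Over all 10 libraries, every FLASH library was below every sham library for 2.46% of genes, Prg4 included. Because Prg4 was selected on these contrasts, nothing is read from its place among them.

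The number of genes past the threshold depended on the libraries and the tool. With all 10 libraries, edgeR's quasi-likelihood test passed 0% of 15266 genes at an adjusted p under 0.05 (Benjamini-Hochberg) in each contrast, while 889 genes for CONV against sham, 99 for FLASH against sham and 453 for CONV against FLASH had an unadjusted p under 0.05. DESeq2 passed 66, 0 and 40 genes in the same contrasts and limma voom 0 in each. With the 8 libraries edgeR passed 0.0393% of 15252 genes for CONV against sham (5 higher and 1 lower), 0% for FLASH against sham (4 genes by DESeq2 and 0 by limma voom) and 0.0131%, or 2 genes, for CONV against FLASH. For the CONV contrasts in these 8 libraries DESeq2 passed far more, 661 genes (4.33%) against sham and 667 (4.37%) against FLASH, and limma voom passed 4 and 3. At an unadjusted p under 0.05 edgeR had 2022 genes (13.3%) for CONV against sham, 385 (2.52%) for FLASH against sham and 2082 (13.7%) for CONV against FLASH, and these shares are the background for the list counts below. The 2 genes past edgeR's threshold for CONV against FLASH were Socs3, described below, and Prg4, from whose place nothing is read because this contrast chose it.

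Per kilobase of exon, which allows levels of different genes to be compared, Prg4 was at 0.490, 0.616 and 0.503 CPM per kb in sham replicates 1 to 3. That placed it above 15.8% to 18.0% of the genes tested, near the lower end of what this fat transcribes. In the FLASH libraries Prg4 was at 0.207 to 0.368 CPM per kb, above 8.24% to 12.7% of genes. In CONV replicates 1 and 3 it was at 4.65 and 3.02 CPM per kb, above 51.3% and 40.9% of genes, a mid-range gene in those libraries, while in CONV replicate 2 it was at 0.328 CPM per kb, above 11.6%.

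Prg4 was also set against the fibroblast content of each library. The summed level of 18 adipose progenitor and fibroblast markers was 5540 to 8440 CPM in sham, 4860 to 6940 CPM in FLASH replicates 1, 2 and 4, 8690 CPM in CONV replicate 1 and 3920 CPM in CONV replicate 3, but 2130 and 2110 CPM in FLASH replicate 3 and CONV replicate 2. Expressed per 1000 CPM of these markers, a measure added after seeing the data, Prg4 was at 0.320, 0.312 and 0.388 in sham, at 0.189, 0.169, 0.415 and 0.324 in FLASH replicates 1 to 4, and at 2.29, 0.664 and 3.30 in CONV replicates 1 to 3. On this scale all 3 CONV libraries lay above all sham and FLASH libraries, and FLASH overlapped sham. FLASH replicate 3 lay above all 3 sham libraries and FLASH replicate 4 above sham replicates 1 and 2. The place of CONV replicate 2 rests on 42 Prg4 counts and on the markers summed. Matrix genes weigh most in the sum, with Col3a1 at a mean of 3050 CPM in sham. Most markers were lower in CONV replicate 2 than in sham, but Dpp4, Icam1 and Ly6a were higher, at 123, 91.0 and 142 CPM. Against any of these 3 alone, Prg4 in CONV replicate 2 lay below sham. The part of fibroblast content in the difference between FLASH and sham was not tested.

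Prg4 lies on chromosome 1 of the mouse build GRCm38, from 150449412 to 150466165 on the minus strand, and GENCODE M21 gives it 8 transcripts whose joined exons cover 4280 bases in 13 blocks. The largest exon of 2286 bases occurs in 2 of the 8 transcripts, Prg4-206 and Prg4-208. The deposited counts are per gene symbol, so transcripts could not be separated. At its far end Prg4 shares 204 bases, 4.8% of its exon length, with exons of Tpr on the opposite strand, a widely transcribed nuclear pore gene, and the strand setting of the counting is not stated in the labels or files.

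The levels of Tpr overlapped between all 3 groups. It was at 201, 238 and 237 CPM in sham, 234, 201, 241 and 194 CPM in FLASH and 230, 267 and 158 CPM in CONV. Its log2 fold change for CONV against sham in the 8 libraries was -0.23 ± 0.18 (SE) with edgeR's adjusted p = 0.624. Prg4 counts per 1000 Tpr counts were 10.4, 11.1 and 9.09 in sham, 4.91, 5.83, 3.67 and 8.12 in FLASH, and 86.4, 5.26 and 82.1 in CONV. Since Tpr varied little, this scale largely repeats the Prg4 levels, with all FLASH libraries below sham. CONV replicates 1 and 3 were almost alike on it, with Tpr at its lowest, 158 CPM, in CONV replicate 3.

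Of 17 genes annotated within 500 kb of Prg4, 8 were in the files and 6 were tested, and edgeR, DESeq2 and limma voom each passed 0 of the 6 in every contrast with either set of libraries, with 0 at an unadjusted p under 0.05 by edgeR. DESeq2 and limma voom each had 1 at an unadjusted p under 0.05 for CONV against sham in the 8 libraries. Hmcn1, which encodes the basement membrane protein hemicentin 1 and is the nearest tested gene on the other side, 96.4 kb away, had a log2 fold change of -0.82 ± 0.39 (SE) for CONV against sham in the 8 libraries, with edgeR's adjusted p = 0.416. Ptgs2, the inducible cyclooxygenase, 341.2 kb away, was at 2.31, 6.02 and 2.72 CPM in sham, 2.12, 5.27, 1.27 and 3.67 CPM in FLASH and 3.84, 1.70 and 0.772 CPM in CONV, and its groups overlapped. Its log2 fold change was -0.68 ± 0.72 (SE). The antisense and long noncoding genes beside it, Ptgs2os and Ptgs2os2, had -1.02 ± 0.81 and -0.42 ± 0.64 (SE), and the phospholipase gene Pla2g4a had 0.27 ± 0.42 (SE). The photoreceptor gene Pdc had 0 counts in every library, and the antisense gene 2310030A07Rik was seen in FLASH replicate 1 alone, at 0.0303 CPM.

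**Figure D3:**
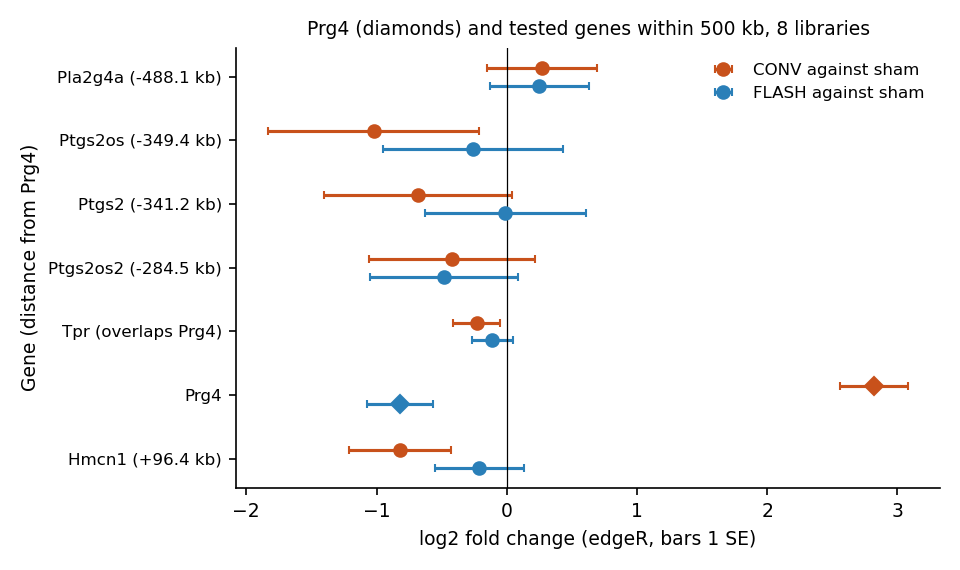
Fitted log2 fold change (horizontal axis, bars are 1 SE) of Prg4 (diamonds) and of the 6 tested genes within 500 kb (circles, ordered by position with the distance in kb) for CONV and FLASH against sham in the 8 libraries with Cr2 below 1 CPM. Prg4 is at 2.82 for CONV, while the neighbours lie between -1.02 and 0.27.

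Among known regulators of Prg4, the cytokine group had the highest median for CONV against sham, 0.74 on the log2 scale over 11 tested members, against 0.01 over all genes tested. In the 8 libraries 8 of the 11 were higher and 3 lower. By edgeR 7 had an unadjusted p under 0.05 (13.3% over all genes), all in the higher direction, and 1, Socs3, passed the threshold. Socs3, the feedback inhibitor induced by STAT3 downstream of the interleukin 6 family, was at 7.17, 7.39 and 7.76 CPM in sham, 8.66, 6.11, 35.5 and 8.95 CPM in FLASH and 38.5, 53.2 and 50.4 CPM in CONV. It rose by 2.56 ± 0.20 (SE) for CONV against sham (edgeR, adjusted p = 0.01) and by 2.48 ± 0.20 (SE) for CONV against FLASH (adjusted p = 0.0126). Limma voom passed 1 gene of the lists used here, Socs3, in each of these 2 contrasts. Unlike Prg4, Socs3 was high in all 3 CONV libraries, replicate 2 included, and in FLASH replicate 3. The Socs3 call was lost with only the 2 groups in the fit (adjusted p = 0.0667 against sham and 0.223 against FLASH) and without any 1 of the sham libraries (0.098, 0.156 and 0.13 against sham without replicates 1, 2 and 3). Against FLASH it was lost without sham replicate 1 or 3 (adjusted p = 0.0579 and 0.066) and without FLASH replicate 1, 2 or 4 (0.134, 0.0828 and 0.0736).

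Other members of the cytokine group did not pass the threshold by edgeR or limma voom. In the 8 libraries DESeq2 passed 6 of the group for CONV against sham (4.33% over all genes), Socs3 included. It passed 4 for CONV against FLASH (4.37% over all genes), and all of these were higher. With all 10 libraries DESeq2 passed 2 for CONV against sham (0.432% over all genes), both higher. Il6, the cytokine upstream of Socs3, was at 0.121, 0.130 and 0.134 CPM in sham, 0.0606, 0.0366, 0.193 and 0.0309 CPM in FLASH and 0.960, 0.1 and 0.993 CPM in CONV. Like Prg4, it was high in CONV replicates 1 and 3 and not in replicate 2, but all sham and FLASH values lay at or near the floor of 3 counts. Il1b, an inflammatory cytokine, was at 0.0976 to 0.243 CPM in sham, 0.183 to 0.394 CPM in FLASH replicates 1, 2 and 4, 4.62 CPM in FLASH replicate 3 and 3.81, 6.85 and 1.47 CPM in CONV. In the 8 libraries its log2 fold change for CONV against sham was 3.91 ± 0.59 (SE), with edgeR's adjusted p = 0.08, and that of Il6 was 2.87 ± 0.44 (SE) with adjusted p = 0.08. Tnf had -0.98 ± 0.48 (SE) and was at 11 and 9.52 CPM in FLASH replicate 3 and CONV replicate 2, against at most 1.20 CPM elsewhere. In FLASH against sham the group median was 0.02, with 7 members higher and 4 lower.

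The TGF-beta and BMP group, which holds the best known inducers of Prg4, was split between directions. Its median for CONV against sham in the 8 libraries was -0.08, with 5 of 12 members higher and 7 lower, and edgeR passed 0 of them, with 2 at an unadjusted p under 0.05 and 2 passed by DESeq2. Tgfbr2, the type II receptor for TGF-beta, was at 192, 217 and 188 CPM in sham, 177, 216, 307 and 234 CPM in FLASH and 378, 274 and 388 CPM in CONV. Its highest levels were those of CONV replicates 1 and 3, and its log2 fold change was 0.92 ± 0.15 (SE) with edgeR's adjusted p = 0.0854. The ligand gene Tgfb1 had 0.07 ± 0.25 (SE). Pth1r, the receptor for parathyroid hormone and its related peptide, had 1.84 ± 0.59 (SE) with adjusted p = 0.244 and was at 88.5 CPM in CONV replicate 3 alone, against 5.58 to 19.3 CPM in the other 9 libraries.

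Of the transcription factors that act on Prg4 in joints, 1 of 12 was higher and 11 were lower for CONV against sham in the 8 libraries, with a median of -0.23. EdgeR passed 0 of them, with 2 at an unadjusted p under 0.05, and DESeq2 and limma voom passed 0. Those 2 were Wwtr1 (-0.56 ± 0.16, SE) and Yap1 (-0.39 ± 0.12, SE), the transcriptional coactivators of the Hippo pathway, with edgeR's adjusted p = 0.209 and 0.219. Creb5, which drives Prg4 in superficial cartilage, was at 21.9, 36.6 and 29.6 CPM in sham, 18.8, 33.5, 5.47 and 29.7 CPM in FLASH and 41.8, 4.04 and 6.58 CPM in CONV. It was therefore high in one of the CONV libraries with high Prg4 and low in the other, and its log2 fold change was -0.29 ± 0.64 (SE). Foxo1 and Foxo3 had -0.22 ± 0.20 and -0.18 ± 0.15 (SE).

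No gene for the partners of lubricin outside the cell passed the threshold. Of 9 tested binding partners and receptors, 6 were higher and 3 lower for CONV against sham in the 8 libraries, with a median of 0.10, and 1 had an unadjusted p under 0.05. EdgeR, DESeq2 and limma voom each passed 0. Cd44, the hyaluronan receptor that also binds lubricin, was at 41.5, 60.3 and 43.3 CPM in sham, 41.2, 50.2, 196 and 47.6 CPM in FLASH and 78.3, 282 and 57.4 CPM in CONV. Its log2 fold change in the 8 libraries was 0.47 ± 0.21 (SE) with edgeR's adjusted p = 0.385. The Toll-like receptor genes Tlr2, Tlr4 and Tlr5 had 0.23 ± 0.32, 0.10 ± 0.22 and 0.06 ± 0.21 (SE), and the matrix partners Fn1 and Comp had -0.23 ± 0.69 and 0.53 ± 0.67 (SE). In FLASH against sham 1 partner was higher and 8 were lower, with a median of -0.11, and 0 had an unadjusted p under 0.05.

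The hyaluronan genes had a median of 0.36 for CONV against sham in the 8 libraries, with 9 of 15 higher and 6 lower, and edgeR passed 0, with 4 at an unadjusted p under 0.05 and 3 passed by DESeq2. Has1 and Has2, which make hyaluronan, had 0.64 ± 0.54 and -0.39 ± 0.70 (SE), and Tnfaip6, which links hyaluronan to the inter-alpha-inhibitor heavy chains, had 0.92 ± 0.35 (SE) with edgeR's adjusted p = 0.315. The smallest p-values belonged to lower genes: Itih5, of the heavy chain family, had -1.05 ± 0.23 (SE) with adjusted p = 0.124 and Has3 had -1.23 ± 0.31 (SE) with adjusted p = 0.157. Of the proteases that can cut lubricin, 7 of 9 were higher and 2 lower, with a median of 0.26, and edgeR passed 0, with 1 at an unadjusted p under 0.05 and 1 passed by DESeq2. Cathepsin S (Ctss) was at 41.0, 46.6 and 44.5 CPM in sham, 36.5, 43.7, 312 and 41.9 CPM in FLASH and 159, 320 and 58.8 CPM in CONV, and had 1.29 ± 0.34 (SE) with adjusted p = 0.176. Neutrophil elastase (Elane) had 0.91 ± 0.41 (SE), and cathepsin G (Ctsg) was at or below 0.424 CPM in every library but CONV replicate 2, where it was at 1.44 CPM.

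The enzymes that build mucin-type O-linked sugars, which coat the middle of lubricin, were spread evenly: 10 of 18 were higher and 8 lower for CONV against sham in the 8 libraries, with a median of 0.05. EdgeR passed 0, with 5 higher and 1 lower at an unadjusted p under 0.05 (13.3% over all genes), and DESeq2 passed 1 (4.33% over all genes). The sialyltransferase gene St3gal1 had 0.77 ± 0.22 (SE) with edgeR's adjusted p = 0.199, and Galnt5, of the family that starts the chains, had -1.67 ± 0.52 (SE) with adjusted p = 0.238.

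The genes that share a protein domain with Prg4 were split between directions. Of the 5 genes with somatomedin B domains, 1 was higher and 4 lower for CONV against sham in the 8 libraries (median -0.36), and 0 passed by edgeR, DESeq2 or limma voom, with 1 at an unadjusted p under 0.05. Vtn, which encodes vitronectin and holds both domain types found in lubricin, had -0.01 ± 0.19 (SE), and the lysophospholipase D gene Enpp2 had -0.36 ± 0.17 (SE). Of 14 tested genes with hemopexin domains, 6 were higher and 8 lower (median -0.04), and edgeR passed 0, with 5 at an unadjusted p under 0.05 and 2 passed by DESeq2. Mmp3, stromelysin 1, was at 20, 21.9 and 33.7 CPM in sham, 21.1, 30.1, 18.0 and 42.6 CPM in FLASH and 88.2, 22.3 and 82.0 CPM in CONV. As for Prg4, only CONV replicates 1 and 3 lay above the rest, and its log2 fold change in the 8 libraries was 1.74 ± 0.31 (SE) with edgeR's adjusted p = 0.0924. Mmp19, another matrix metalloproteinase, was at 71.9, 71.0 and 62.2 CPM in sham and at 114, 18.3 and 99.6 CPM in CONV, and had 0.63 ± 0.12 (SE) with adjusted p = 0.101.

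Most other extracellular proteoglycan genes had lower fitted levels in both irradiated groups than in sham, with none past the threshold. For CONV against sham in the 8 libraries, 2 of 17 were higher and 15 lower, with a median of -0.58, and edgeR passed 0, with 1 higher and 3 lower at an unadjusted p under 0.05 and 1 passed by DESeq2. Aspn, the small leucine-rich proteoglycan asporin, was at 66.2, 87.0 and 74.2 CPM in sham, 54.0, 52.8, 10.9 and 46.1 CPM in FLASH and 41.2, 9.59 and 22.8 CPM in CONV. It had -1.26 ± 0.25 (SE) with edgeR's adjusted p = 0.104. Prelp, which anchors basement membranes, had -1.12 ± 0.38 (SE) with adjusted p = 0.272. Per kilobase of exon in the 8 libraries, Prelp was at 262, 356 and 122 CPM per kb and Prg4 at 0.536, 0.303 and 3.84 CPM per kb in sham, FLASH and CONV. Prg4 lay above 8 of the 22 listed proteoglycans in sham, above 8 in FLASH and above 11 in CONV. In FLASH against sham 4 proteoglycan genes were higher and 13 lower, with a median of -0.30 and 0 passed by any of the 3 tools, with 1 at an unadjusted p under 0.05. Of the mucin genes 4 were tested, with 2 higher and 2 lower for CONV against sham and 0 passed by the 3 tools, with 1 at an unadjusted p under 0.05. That gene was Muc1, an epithelial surface mucin, with 0.81 ± 0.34 (SE) and edgeR's adjusted p = 0.361.

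Some markers of cartilage, tendon and mesothelium were at or near 0, while other members and the sums over the marker lists were not. The cartilage collagen gene Col2a1 was at or below 0.152 CPM, the tendon gene Tnmd at or below 0.0911 CPM and the mesothelial gene Msln at or below 0.110 CPM in every library, and the mesothelial factor gene Wt1 had 0 counts in all 10. The summed cartilage markers were at 5.10 to 18.5 CPM in sham, 4.69 to 16.7 CPM in FLASH and 6.4 to 11.6 CPM in CONV, and the mesothelial markers at 4.92 to 12.3, 2.63 to 9.36 and 5.26 to 20.6 CPM. Of the cartilage list, Sox9 was at 1.33 to 3.94 CPM and Cytl1 at 0.1 to 12.4 CPM, while Acan was at or below 0.0732 CPM. These genes were named after their values were seen. The tendon markers summed to 57.5 to 90.3 CPM in sham, 23.9 to 68.1 CPM in FLASH and 35.4 to 87.8 CPM in CONV, of which Egr1, an immediate early gene of many tissues named here after its values were seen, held 18.2 to 74.7 CPM. The 10 synovial lining markers, many of which other fibroblasts transcribe too, summed to 315 to 389 CPM in sham, 280 to 531 CPM in FLASH and 267 to 578 CPM in CONV, with 368 and 267 CPM in CONV replicates 1 and 3. Clic5, a chloride channel family gene of the synovial lining, was at 46.2 and 28.5 CPM in these libraries against 42.3 to 54.1 CPM in sham. For CONV against sham in the 8 libraries 3 synovial lining markers were higher and 7 lower (median -0.35), and edgeR, DESeq2 and limma voom passed 0, with 1 at an unadjusted p under 0.05.

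The fibroblast markers of fat had mostly lower fitted levels in both irradiated groups than in sham, although their sum was highest in CONV replicate 1, the library with the most Prg4. For FLASH against sham in the 8 libraries 5 of 18 were higher and 13 lower (median -0.24). For CONV against sham 3 were higher and 15 lower (median -0.29), and edgeR passed 0, with 2 at an unadjusted p under 0.05 and 2 passed by DESeq2. Those 2 were the adhesion gene Icam1 (0.93 ± 0.18, SE) and the progenitor surface gene Ly6a (0.87 ± 0.19, SE), with edgeR's adjusted p = 0.103 and 0.124. Pi16, a marker of universal fibroblasts, was at 152, 204 and 68.0 CPM in sham and at 136, 33.3 and 29.4 CPM in CONV. Dpp4, a marker of interstitial adipose progenitors, was at 74.9, 103 and 62.0 CPM in sham and at 122, 123 and 17.3 CPM in CONV. CONV replicates 1 and 3, alike in high Prg4, thus differed several-fold in both markers.

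Markers of immune cells were partly higher in the CONV libraries. Over the 8 libraries, Pearson's r of the log2 marker sum with log2 Prg4 was 0.65 for macrophages and 0.87 for neutrophils and monocytes. It was 0.94 for B cells and lymph node, and such an r mostly reports the split between CONV and the other libraries. In CONV replicate 2, left out of the 8 and low in Prg4, these sums were 1710, 405 and 2970 CPM, each above the sham range. All 10 macrophage markers were higher for CONV against sham in the 8 libraries (median 0.87), and edgeR passed 0 of them, with 7 at an unadjusted p under 0.05 (13.3% over all genes) and 1 passed by DESeq2 (4.33% over all genes). Their sum was 893 to 1100 CPM in sham, 838 to 1280 CPM in FLASH, and 2720, 1710 and 962 CPM in CONV replicates 1 to 3. CONV replicate 3, with high Prg4, thus lay within the sham range, and CONV replicate 2, with low Prg4, above it. Fcgr1, the high-affinity IgG receptor gene, was at 4.59, 3.68 and 2.15 CPM in sham, 3.91, 3.04, 4.27 and 3.8 CPM in FLASH and 12.3, 6.65 and 11.3 CPM in CONV, and had 1.75 ± 0.30 (SE) with edgeR's adjusted p = 0.0924. The summed neutrophil and monocyte markers were 5.04 to 7.59 CPM in sham, 6.57 to 83.6 CPM in FLASH and 25.1, 405 and 13.7 CPM in CONV. Of these, Csf3r, the receptor for granulocyte colony-stimulating factor, had 1.76 ± 0.24 (SE) with adjusted p = 0.0693, and 4 of 4 tested members were higher, with 2 at an unadjusted p under 0.05, 0 passed by edgeR and 2 by DESeq2. The 8 tested B cell and lymph node markers were all higher (median 1.05), their sum being 20.6 and 13.6 CPM in CONV replicates 1 and 3 against 4.65 to 7.59 CPM in sham, and edgeR passed 0 of them, with 2 at an unadjusted p under 0.05 and 1 passed by DESeq2. The part of these cells in the Prg4 difference was not tested.

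Skeletal muscle, which borders this fat pad, differed between the 2 CONV libraries that shared high Prg4. The summed muscle markers were 1800 CPM in CONV replicate 1 and 1.80 CPM in CONV replicate 3, and 5.85 to 608 CPM in the other 8 libraries. All 10 muscle markers had a higher mean for CONV against sham in the 8 libraries (median 2.54), with 0 at an unadjusted p under 0.05 and 0 passed by edgeR, DESeq2 or limma voom. Prg4 was high at both ends of this range. The 12 adipocyte markers were about even, with 7 higher and 5 lower (median 0.03), and Adipoq, which encodes adiponectin, had -0.35 ± 0.23 (SE). EdgeR passed 0 of them, with 3 at an unadjusted p under 0.05 and 3 passed by DESeq2. The 8 Schwann cell markers were all lower for CONV against sham (median -0.73) and all lower for FLASH against sham (median -0.76), with 2 at an unadjusted p under 0.05 in each and 0 passed by the 3 tools.

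**Figure D4:**
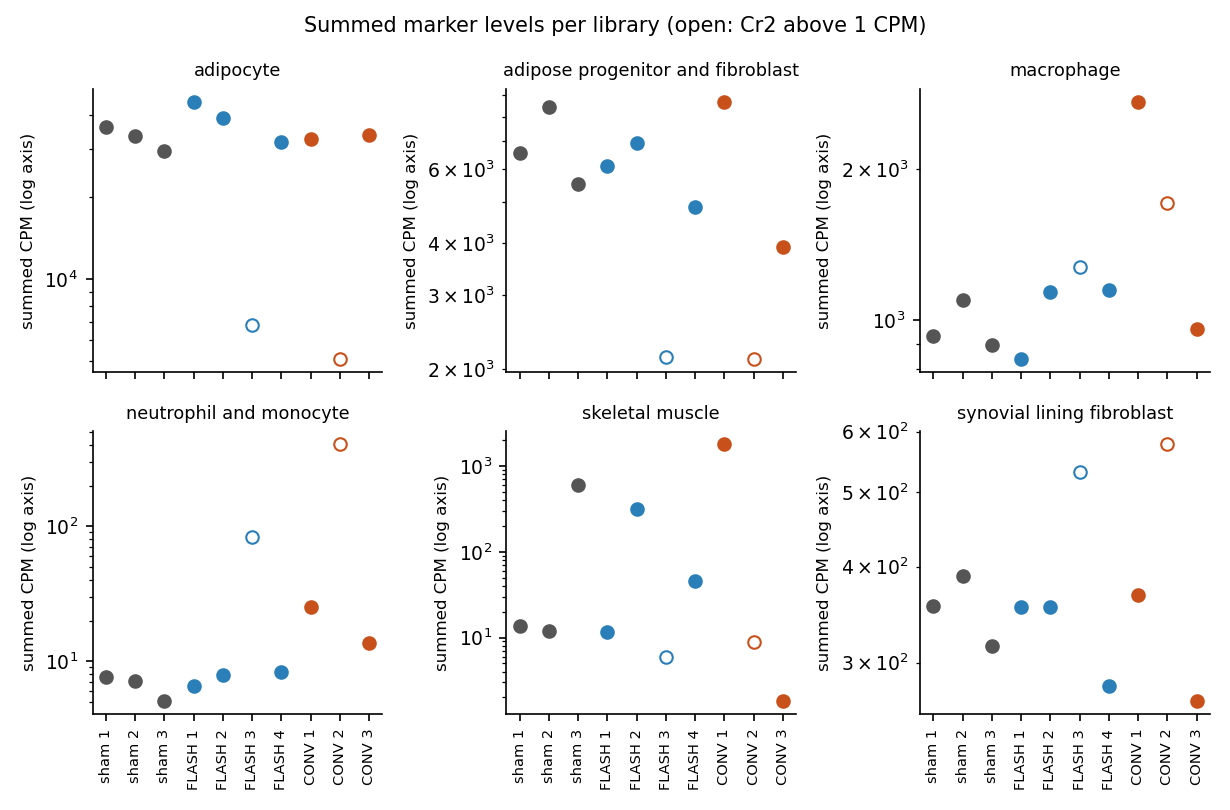
Summed CPM of 6 marker lists in each library (vertical log axes, libraries along the horizontal axis, open symbols for the 2 libraries with Cr2 above 1 CPM). CONV replicates 1 and 3, which had the highest Prg4, differ in muscle markers (1800 against 1.80) and in macrophage markers (2720 against 962) and are close in adipocyte markers (32600 against 33700).

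The genes whose levels were most like that of Prg4 were sought among 11241 genes with a mean log2 CPM of at least 2 in the 8 libraries, by Pearson's r of log2 CPM. These 8 libraries fall into the 2 CONV libraries with high Prg4 and the 6 others, so an r over all 8 mostly reports that split, and libraries share depth and composition. The values are a description with no test. A total of 58 genes (0.516%) had r of at least 0.9 and 72 (0.641%) had r of at most -0.9. Of the 58 genes, 9 also had Spearman's rho of at least 0.9 and 8 kept r of at least 0.9 once group means were removed. Without the 2 libraries farthest from the median of Prg4, which are the 2 CONV libraries, 3 of the 58 kept r of at least 0.9 over the 6 libraries left.

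Fgr, a Src-family kinase of myeloid cells, came first with r = 0.986 and rho = 0.905 over the 8 libraries, and r = 0.915 over the 6 libraries that were not CONV. It was at 3.61, 4.62 and 3.56 CPM in sham, 2.73, 2.89 and 3.71 CPM in FLASH replicates 1, 2 and 4 and 13.5 and 8.53 CPM in CONV replicates 1 and 3, so the order of the groups was that of Prg4. In FLASH replicate 3 and CONV replicate 2 it was at 58.0 and 80.0 CPM, where Prg4 was low, and over all 10 libraries r was 0.002. Il2rg, the shared receptor chain of the interleukin 2 family, ranked all 8 libraries exactly as Prg4 did (r = 0.963, rho = 1, and r = 0.949 over the 6 libraries). It was at 10.1, 11.9 and 11.4 CPM in sham, 9.02, 9.04 and 9.66 CPM in FLASH replicates 1, 2 and 4 and 18.3 and 14.2 CPM in CONV replicates 1 and 3, but at 229 and 216 CPM in the pair rich in Cr2. The others were Sema4d (r = 0.973), Arpc5 (r = 0.97), Pirb (r = 0.969), Sat1 (r = 0.963), Tlr1 (r = 0.962) and Fes (r = 0.957), whose r over the 6 libraries lay between 0.304 and 0.848.

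Ifitm3 kept most of its likeness to Prg4 when the pair rich in Cr2 was added, and Spon1 kept less of it. Ifitm3, an interferon-induced membrane protein gene, was at 46.6, 52.3 and 54.4 CPM in sham, 46.1, 47.9, 31.6 and 47.6 CPM in FLASH and 79.4, 41.1 and 73.9 CPM in CONV. It was high in CONV replicates 1 and 3 and at its lowest in FLASH replicate 3 and CONV replicate 2, with r = 0.977 over the 8 and 0.919 over all 10 libraries, and 0.697 over the 6. Spon1, which encodes the secreted matrix protein F-spondin, was at 17.5, 19.5 and 14 CPM in sham, 13.6, 15.0, 21.7 and 20.4 CPM in FLASH and 48.2, 29.2 and 43.2 CPM in CONV. Its r was 0.957 over the 8 and 0.806 over all 10 libraries, but 0.499 over the 6, so its likeness rests mostly on CONV replicates 1 and 3. In the pair rich in Cr2, Spon1 lay above every sham library, at 21.7 and 29.2 CPM, whereas Prg4 lay below every sham library.

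The genes of most opposite pattern were Ago1, an RNA interference gene, with r = -0.991, and Pkmyt1, a kinase gene that restrains entry into mitosis, with r = -0.984 and rho = -1. Pkmyt1 was at 12.5, 10.6 and 11.1 CPM in sham, 15.9, 13.0, 20.5 and 12.6 CPM in FLASH and 5.95, 19.3 and 7.06 CPM in CONV, so it was highest in FLASH replicate 3 and CONV replicate 2 and lowest in CONV replicates 1 and 3. Its r was -0.931 over all 10 libraries and -0.871 over the 6. Paqr4, Pias3 and Bcl6b followed with r = -0.967, -0.954 and -0.953.

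**Figure D5:**
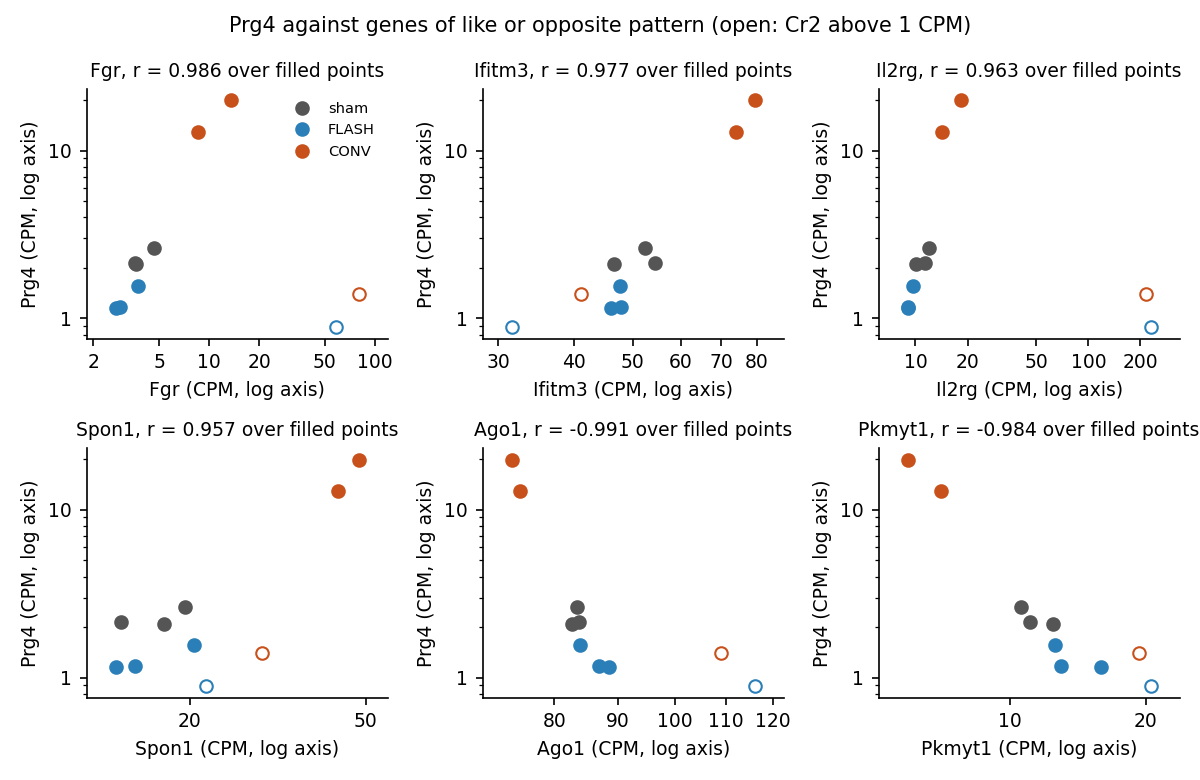
Prg4 (vertical log axis, CPM) against 4 genes of like and 2 of opposite pattern (horizontal log axes, CPM), with 1 point per library and open points for the 2 libraries with Cr2 above 1 CPM. The open points leave the trend for Fgr (58.0 and 80.0) and Il2rg (229 and 216) and stay on the side of low Prg4 for Ifitm3 (31.6 and 41.1) and Pkmyt1 (20.5 and 19.3).

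Among the gene lists, few members resembled Prg4 this closely. In the 8 libraries r was 0.95 for Mmp19, 0.946 for Csf3r, 0.936 for Socs3 and 0.922 for Tgfbr2, and no other listed gene with a mean log2 CPM of at least 2 reached 0.9. The median r with Prg4 was 0.72 over 7 cytokine genes and 0.71 over 10 macrophage markers, against 0 over all genes compared. It was -0.17 over 16 fibroblast markers, -0.15 over 7 synovial lining markers, -0.27 over 13 proteoglycans and -0.49 over 11 transcription factors.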

How the data were processed

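Total RNA libraries were made with a stranded ribosomal depletion kit from TRIzol extracts, per the labels' protocols. The authors deposited unnormalized counts, whole numbers for each gene symbol in each library. The tools kallisto 0.5.0 and the build mm10 are named per the submitters' processing notes, while the count files end in entries named as htseq-count writes them. Aligner, strand setting and annotation: not given in the sources used here. Entries for reads given to no gene held 52% to 69.6% of each library and were left out.

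In R 4.3.3, genes passing edgeR 4.0.16 filterByExpr by group were scaled by TMM and fitted by a robust quasi-likelihood model with 1 mean per group, two-sided, with p-values adjusted by Benjamini and Hochberg over all genes of a contrast. SE is the size of the log2 fold change divided by the square root of F. The fit was made with all 10 libraries and with the 8 whose Cr2 was below 1 CPM. Likeness used log2 CPM with a prior count of 2. DESeq2 1.42.0, limma 3.58.1 (voom), 2 other scalings, 2 other filters, fits of 2 groups, a replicate block and leaving out each library were alternatives. The steps were tested on simulated data. GENCODE M21 matched 95.5% of symbols, and gave positions and exon lengths.

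Prg4, the gene lists and the tests were chosen with earlier results of these data known. Named genes are Prg4, a fixed set of partners, regulators and markers, the 10 most and 5 least alike genes, all neighbours within 500 kb and, per list, the members past the threshold or otherwise up to 2 with the smallest p for CONV against sham in the 8 libraries. A gene picked by this rule is not reported here.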

Additional observations from a re-analysis of the deposited data

Results flagged for a closer look

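Of 49 genes considered in the 4 FLASH libraries, 19 had FLASH replicate 3 far from the other 3 libraries by Dixon's criterion. Il6, Col2a1, Tnmd and Msln were among the 49 but were not put to the criterion, since they stayed below 1 CPM in every library. Chance alone meets the criterion in about 5% of groups. The genes are not independent and Cr2, which set this library apart, is among the 19, so nothing is read from that comparison. FLASH replicate 3 is the FLASH library with high Cr2 (416 CPM, against 0.124 to 0.366 in the other 3), and Prg4 itself was not among the 19. Of the fixed set of partners, regulators and markers, FLASH replicate 3 also stood high for Cd44 (196 CPM), Ctss (312 CPM), Tnf (11 CPM), Vtn (16.0 CPM) and Ctsg (0.424 CPM against 0). It stood low for Fn1 (176 CPM) and for the markers Clic5 (11.8 CPM) and Pi16 (12.2 CPM).

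Of the genes most like Prg4 in the 8 other libraries, FLASH replicate 3 stood high for Fgr (58.0 CPM), Sema4d (198 CPM), Arpc5 (182 CPM), Pirb (57.9 CPM), Sat1 (63.0 CPM), Il2rg (229 CPM) and Tlr1 (83.8 CPM), and low for Ifitm3 (31.6 CPM). Of the opposite genes it stood high for Ago1 (116 CPM) and low for Paqr4 (9.55 CPM).

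The fitted differences of CONV and FLASH from sham in Prg4 had opposite signs in the 8 libraries with Cr2 below 1 CPM. Both CONV libraries lay above every sham library and all 3 FLASH libraries below, and the fitted difference between CONV and FLASH was 3.65 on the log2 scale. Of all genes tested, 12.9% had CONV above every sham library in the 8 libraries. Over all 10 libraries, 2.46% had FLASH below every sham library. The share of genes with both features was not counted. The difference was not tested, since Prg4 was chosen for this pattern.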

How the results depend on the processing

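The direction of the Prg4 difference was the same in each contrast under every alternative, in 102 of 102 values, of which 96 moved by less than the spread between libraries. These fits share libraries, and Prg4 was chosen for this pattern in them, so the values describe the processing and are no support for the direction. Leaving out each library gave 2.47 to 3.11, -0.99 to -0.71 and 3.29 to 3.93 for CONV against sham, FLASH against sham and CONV against FLASH in the 8 libraries, and 1.64 to 2.83, -1.10 to -0.83 and 2.58 to 3.78 in all 10. In the 8 libraries the extremes of both CONV contrasts came without CONV replicate 1 or 3, which left CONV with 1 library. Limma voom gave the lowest values for CONV in all 10 libraries, 1.64 against sham and 2.58 against FLASH.

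Counts of genes passing the threshold depended more on the choices. DESeq2 passed 66 and 40 genes for CONV against sham and against FLASH in all 10 libraries, and 661, 4 and 667 for CONV against sham, FLASH against sham and CONV against FLASH in the 8. Fits of only the 2 groups compared passed 0 and 0 for the CONV contrasts in the 8 libraries, and no filter passed 5 for CONV against FLASH. Leaving out each library gave 0 to 1134 for CONV against sham and 0 to 1025 for CONV against FLASH in the 8 libraries. The highest counts came without CONV replicate 1. In the 8 libraries, leaving out CONV replicate 1 or 3 left CONV with 1 library. Such a fit holds no spread between CONV libraries, so nothing is read from its count of genes. In all 10 libraries the range was 0 to 1 for both CONV contrasts. The cause was not tested.

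Whether the replicate numbers pair the samples could not be settled. Correlations of same-numbered libraries, taken on deviations from the group means, ran from -0.76 to 0.26 over 9 pairs, with 2 over 0.1. The pair rich in Cr2, FLASH replicate 3 and CONV replicate 2, correlated at 0.9 under different numbers, so this check cannot exclude a pairing. With the replicate number as a block, 0 and 0 genes passed for CONV against sham and against FLASH in the 8 libraries, the adjusted p of Socs3 was 0.364 and 0.598, and Prg4 was at -1.12 for FLASH against sham and 4.00 for CONV against FLASH.

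Over all 10 libraries r with Prg4 changed sign for Sema4d (-0.151), Arpc5 (-0.006), Il2rg (-0.239), Tlr1 (-0.010) and Paqr4 (0.137). Depth limited Il6 and the rarest markers, which lay near the floor of 3 counts.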

Other observations

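The genes most like Prg4 over all 10 libraries, a search added after seeing the data, differed from those over the 8. Among 11387 genes, Prorsd1 had r = 0.923, Ifitm3 0.919, Atp6v1d 0.913, Sned1 0.911, Fblim1 0.899, Npl 0.897, Tmem69 0.886 and Plod2 0.884, each as a description with no test. Sned1, which encodes a secreted matrix protein, was at 38.3, 49.2 and 48.6 CPM in sham, 31.4, 51.6, 40.4 and 57.4 CPM in FLASH and 134, 34.7 and 172 CPM in CONV. Plod2, the lysyl hydroxylase gene for collagen crosslinks, was at 14.8, 18.8 and 21.9 CPM in sham, 12.9, 15.7, 8.70 and 18.2 CPM in FLASH and 35.9, 8.65 and 40.0 CPM in CONV. These 2 were singled out after their values were seen, and their likeness to Prg4 is what the search selected. Without CONV replicates 1 and 3, r fell to 0.328 for Sned1 and to 0.701 for Plod2.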
